A study of Mus musculus with 20 samples.

Results

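The association of RNAs with polysomes was examined in NSC-34 cells without induced HuD, by setting the 2 polysomal RNA libraries of the control cells (POL-Seq) against the 2 total RNA libraries of the same condition (RNA-Seq). These are 4 of the 20 samples of the series, and all 14924 genes of the count table were considered, of which 14673 passed a filter on low counts and were tested. NSC-34 is a mouse line with motor neuron properties. The study transduced it with a vector for tagged human HuD (ELAVL4), a neuronal RNA-binding protein, and asked how HuD acts on its target mRNAs. Control cells were treated with cycloheximide, which holds ribosomes on mRNA, and a cleared cytoplasmic lysate was spread over a sucrose gradient, whose polysomal fractions gave the polysomal RNA. The labels speak of pooled gradient fractions for total RNA as well, but do not say whether these span the whole gradient, so the ratio may be to the gradient or to the lysate loaded on it. HuD cells received 2 µg/ml of inducer for 48 h, tetracycline per the labels and doxycycline per the methods, whereas what the control cells of this assay carried or received is not stated beyond the name control. The 2 polysomal and 2 total RNA libraries of HuD cells were used here only to see whether the order of genes repeated. Each library was a poly(A) selected library of a biological duplicate.

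An mRNA carrying several ribosomes sediments with polysomes, whereas mRNAs held in ribonucleoprotein particles, mRNAs with few ribosomes and most noncoding RNAs remain in the lighter fractions. The ratio of polysomal to total RNA of a gene is often read as its translation efficiency. Cells regulate this step strongly for some mRNA families, such as those of ribosomal proteins, whose 5′ terminal oligopyrimidine (TOP) tract links their translation to growth signals, and those of ferritins, whose 5′ UTR binds iron regulatory proteins.

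The 4 control libraries held 21296012 to 35836234 counts, the lowest being polysomal library 2. Levels are given as CPM, counts scaled to a common library total with TMM factors, and the log2 ratio of polysomal to total RNA comes from edgeR's quasi-likelihood fit, with its standard error after the ± sign. Each fraction was scaled to its own total, so that a ratio is relative to the average gene and does not measure how much RNA was on polysomes, and in bulk samples fewer cells with an mRNA and less of it per cell cannot be told apart. The polysomal control libraries differed from each other most: over 9702 genes with a mean of at least 10 CPM, the log2 difference between libraries 1 and 2 had an SD of 0.28 for polysomal control, 0.17 for total control, 0.13 for polysomal HuD and 0.20 for total HuD. Neuronal identity was checked with markers. All 9 pan-neuronal markers and 11 of 13 cholinergic motor neuron markers had counts, although Chat, which makes acetylcholine, reached only 0.593 CPM in polysomal and 0.524 CPM in total RNA on average. The filter on low counts was passed by 7 of the 9 pan-neuronal and by all 11 of these motor neuron markers. Of 7 astrocyte, 8 oligodendrocyte, 9 microglia or blood and 8 skeletal muscle markers, 2, 4, 1 and 3 had counts, and 2, 4, 1 and 2 passed the filter.

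Most genes had nearly the same share of polysomal and total RNA in control cells. The median log2 ratio over the 14673 genes was 0.00, the middle 50% lay between −0.16 and 0.13, and the lowest and highest 1% began at −1.04 and 0.55. The tail towards low ratios was the longer one: 158 genes (1.08%) were at least 2-fold lower in polysomal RNA and 16 (0.109%) at least 2-fold higher. With 2 libraries a fraction, no gene passed an adjusted p of 0.05 in edgeR's test (0 of 14673 in either direction, 0%), and the smallest adjusted p was 0.317, shared by 8 genes. At an unadjusted p under 0.05, 561 genes were lower (3.82%) and 185 higher (1.26%). DESeq2 called 46 genes lower and 0 higher at an adjusted p under 0.05, limma voom called none in either direction, and a fit to all 8 libraries, in which the HuD libraries also estimate the spread, called 26 lower (0.174%) and 0 higher. Leaving out polysomal library 1 gave 802 genes lower and 515 higher, a fit in which the lone polysomal library is assumed to vary like the total libraries, and leaving out any other library gave 19 to 38 lower and 0 to 7 higher. As a count that needs no model, the 2 polysomal values lay below both total values for 2917 genes (19.9%) and above both for 2794 (19%), with a difference of at least 2-fold for 153 (1.04%) and 15 (0.102%).

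Among protein coding mRNAs, those of the 2 ferritin subunits, which form the iron storage shell of the cell, had the lowest ratios of the named genes. Ftl1 stood at 480 and 379 CPM in the polysomal libraries and at 1447 and 1212 CPM in the total RNA libraries. Fth1 stood at 527 and 336 CPM in polysomal and at 1384 and 1089 CPM in total RNA. For both genes each polysomal value lay far below the lower total value, with no overlap. Ftl1 had a log2 ratio of −1.64 ± 0.17, a 3.11-fold lower level (adjusted p = 0.317 in edgeR), and Fth1 a ratio of −1.53 ± 0.24 (adjusted p = 0.433). In the fit to all 8 libraries the adjusted p was 0.00798 for Ftl1 and 0.027 for Fth1.

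The 5′ UTRs of both ferritin mRNAs hold the loop of the iron-responsive element, and their 30-base windows are shown because these mRNAs gave the largest deficit. They were read from GENCODE vM21 transcripts and lie at chr19:9982729-9982758 on the plus strand (Fth1) and chr7:45459781-45459810 on the minus strand (Ftl1) of GRCm38, and capitals mark the bulged C and the first 5 bases of the loop.
Fth1: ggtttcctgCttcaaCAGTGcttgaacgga
Ftl1: tgtgtcttgCttcaaCAGTGtttgaacgga
The letters searched on the transcript strand, a C followed by any 5 bases and CAGTGN, are short and were found in an annotated 5′ UTR of 1719 of 12717 genes (13.5%). Their presence alone went with no difference: the median log2 ratio was 0.04 over 1276 coding genes at 10 CPM or more with the letters and 0.03 over 8253 without. The other 4 measured members of the iron list had log2 ratios from −0.28 to 0.15, with Tfrc, the transferrin receptor, at 59.9 and 71.5 CPM in polysomal and 54.8 and 62.8 CPM in total RNA (log2 ratio 0.15 ± 0.13), and the groups overlapped. Of the 6 measured members, 2 had polysomal values below both total values and none above, beside 19.9% and 19% of all genes.

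**Figure D1:**
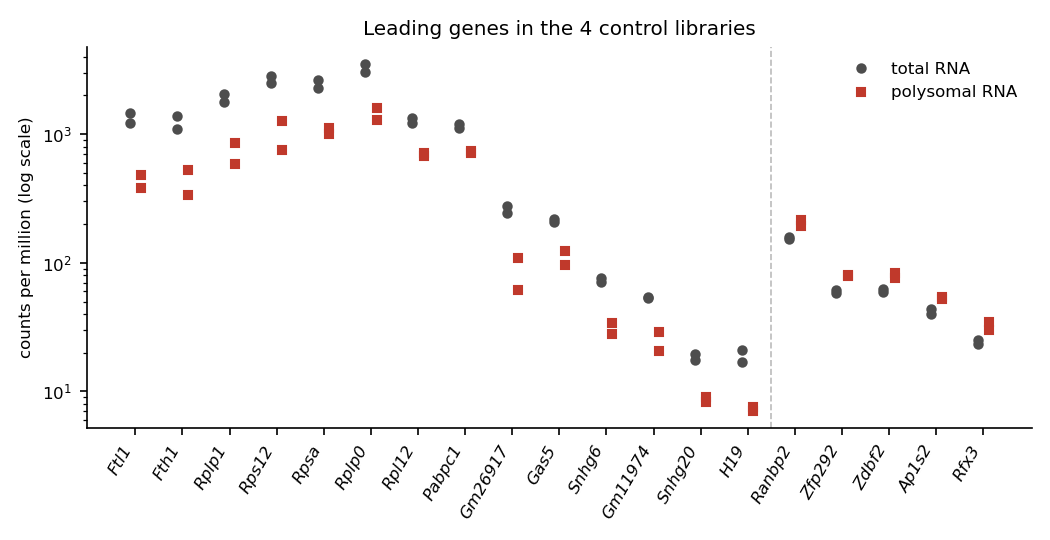
Level of named genes in each control library, in CPM on a log axis, with circles for the 2 total RNA and squares for the 2 polysomal RNA libraries. Left of the dashed line the polysomal squares lie below the circles, for Ftl1 at 379 to 480 against 1212 to 1447 CPM, and right of it they lie above, for Ranbp2 at 194 to 216 against 152 to 159 CPM.

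mRNAs of cytosolic ribosomal proteins were lower in polysomal RNA as a family. All 84 measured members were tested, with a median log2 ratio of −0.24 (middle 50% from −0.36 to −0.14) against 0.00 over all genes. The ratio was below 0 for 97.6% of members, and polysomal values lay below both total values for 66 and above both for 0, beside 19.9% and 19% of all genes. At an unadjusted p under 0.05, 21 were lower and 0 higher, and none passed after adjustment over all genes. Of all genes 3.82% were lower and 1.26% higher at that unadjusted threshold of edgeR's test. The median was −0.21 from the libraries numbered 1 and −0.29 from those numbered 2.

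The family was far from uniform. Rplp1, Rps12, Rpsa, Rplp0, Rpl41, Rps29, Rps2 and Rpl12 had log2 ratios from −1.43 to −0.88, while Rpl4 and Rpl10 were at −0.10 and −0.11. Rplp0, the stalk protein that anchors the acidic P1 and P2 proteins, stood at 1592 and 1285 CPM in polysomal and at 3484 and 3022 CPM in total RNA (log2 ratio −1.18 ± 0.17, adjusted p = 0.433 in edgeR). Rplp1, one of those acidic stalk proteins, stood at 845 and 581 against 2047 and 1776 CPM, a 2.69-fold lower level (−1.43 ± 0.21, adjusted p = 0.433 in edgeR). Its partner Rplp2 did not share this ratio (−0.33).

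Rpsa, a small subunit protein also known as the laminin receptor, stood at 1113 and 1003 CPM in polysomal and at 2643 and 2267 CPM in total RNA (−1.22 ± 0.15, adjusted p = 0.317 in edgeR). Rps12 stood at 1272 and 753 against 2820 and 2479 CPM (−1.39 ± 0.26, adjusted p = 0.583 in edgeR), with the polysomal libraries far apart from each other. Rpl12 stood at 678 and 717 against 1340 and 1214 CPM (−0.88 ± 0.13, adjusted p = 0.433 in edgeR). Polysomal and total values did not overlap for any of these genes. Rpl41, a very short ribosomal protein, rested on uneven libraries: its polysomal values were 2030 and 910 CPM against 3216 and 2682 CPM, and its ratio was −0.54 without polysomal library 2 and −1.71 without polysomal library 1. In the fit to all 8 libraries, 6 members passed the adjusted p of 0.05 in the lower direction, namely Rpsa, Rplp0, Rplp1, Rpl12, Rps2 and Rps12. Of all genes in that fit, 26 (0.174%) passed as lower. Ribosomal protein genes have many processed pseudogenes of near-identical sequence, so that reads could be shared or lost in counting and single values are uncertain to that extent.

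**Figure D2:**
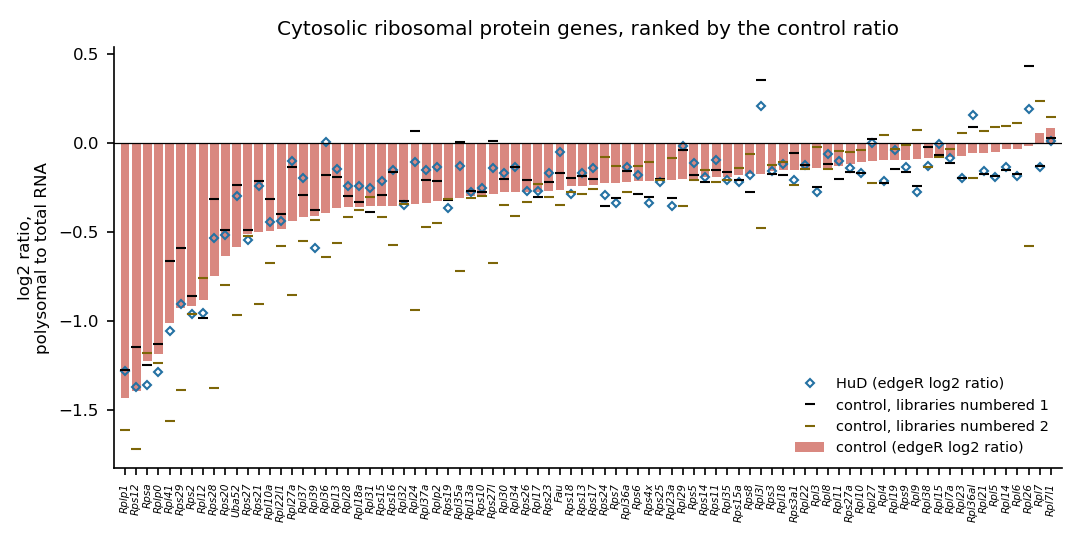
Log2 ratio of polysomal to total RNA for the 84 cytosolic ribosomal protein genes, ranked by the edgeR estimate in control cells (bars), with the ratio from control libraries numbered 1 and 2 (dashes) and the edgeR estimate in HuD cells (diamonds). The bars run from −1.43 to 0.08 around a median of −0.24, and a steep group of low genes on the left is low in both pairs and in HuD cells.

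TOP tracts were looked for at the annotated starts in RefSeq promoters (GRCm38.p6), as a C followed by at least 5 pyrimidines and beginning no more than 5 bases before or after the start. They were present for 27 of 63 ribosomal protein genes with a promoter sequence (42.9%) and for 13% of 10391 genes of the table. Annotated starts can be some bases off, so a missing match says only that the letters are not in this window. The median log2 ratio was −0.27 for the ribosomal protein genes with the letters and −0.22 for those without. Windows of 30 bases, from 10 bases before the annotated start, are shown for the 3 lowest and the 3 highest ratios among the 27 genes, and capitals mark the tract. The lowest were Rps2 (chr17:24720053-24720082, plus strand, log2 ratio −0.91), Rpl12 (chr2:32961702-32961731, plus, −0.88) and Rps27 (chr3:90213629-90213658, minus, −0.51), and the highest Rpl15 (chr14:18270967-18270996, minus, −0.08), Rpl7a (chr2:26910797-26910826, plus, −0.08) and Rpl14 (chr9:120571507-120571536, plus, −0.03).
Rps2: gtcgagatctcgcgCTTCTTggagcactat
Rpl12: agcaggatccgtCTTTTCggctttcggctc
Rps27: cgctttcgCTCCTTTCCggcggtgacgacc
Rpl15: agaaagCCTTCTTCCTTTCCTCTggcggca
Rpl7a: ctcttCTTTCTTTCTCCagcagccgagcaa
Rpl14: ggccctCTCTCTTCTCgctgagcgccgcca
The tracts were 6, 6 and 9 bases long in the lowest genes and 17, 12 and 10 in the highest. These genes were picked by their ratio, and a relation of tract length and ratio across the 27 genes was not tested. The 20 bases of Rpl27a, the longest tract, went with a ratio of −0.44.

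Other TOP mRNAs, which encode elongation factors and further parts of the translation machinery, had a median log2 ratio nearer to 0. Over 16 members it was −0.06 in control and −0.17 in HuD cells, and in control cells ran from −0.10 to 0.0052 on leaving out 1 library. In control cells 6 had polysomal values below both total values and 0 above, beside 19.9% and 19% of all genes, and in HuD cells 9 lay below and 1 above, beside 24.4% and 25.5%. Pabpc1, the cytoplasmic poly(A)-binding protein, was the member farthest from this median. It stood at 737 and 713 CPM in polysomal and at 1204 and 1113 CPM in total RNA (−0.68 ± 0.13, adjusted p = 0.0472 in the fit to all 8 libraries). Eef1a1, which delivers aminoacyl-tRNA, stood at 5636 and 5876 against 6248 and 6134 CPM (−0.11 ± 0.16), so that its groups did not overlap but differed by less than the error of the fit. Npm1, a nucleolar chaperone, had the opposite sign at 1316 and 2065 against 1259 and 1472 CPM (0.30 ± 0.23), and its groups overlapped.

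Initiation factor mRNAs had a median log2 ratio of 0.10 over 52 members, with 10 above and 5 below both total values, beside 19% and 19.9% of all genes, so that the share above was that of all genes. Of the eIF4A helicases, Eif4a2 had polysomal values of 138 and 158 CPM below its total values of 165 and 178 CPM (−0.22 ± 0.11), whereas Eif4a1 (0.09 ± 0.13) and Eif4a3 (0.00 ± 0.11) overlapped. Eif4ebp2, which encodes an eIF4E-binding repressor of translation, stood at 109 and 76.6 against 115.7 and 116.5 CPM (−0.33 ± 0.17). None of the factors passed the adjusted p in control cells. Elavl4, which encodes HuD itself, was measured in control cells at 90.3 and 118 CPM in polysomal and at 78.3 and 97.4 CPM in total RNA, with overlapping groups (0.24 ± 0.16).

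Host genes of small nucleolar RNAs, whose introns are processed into guides of RNA modification and whose spliced exons are mostly noncoding, formed the lowest group of all lists. The median log2 ratio of the 12 members was −1.01, and all 12 were below 0. For 11 of 12 the polysomal values lay below both total values, at an unadjusted p under 0.05 in each, with Snhg14 as the exception (26.0 and 30.1 against 29.7 and 30.3 CPM). Over all genes 19.9% lay below both total values, and 3.82% were lower at that unadjusted threshold of edgeR's test. Snhg6 stood at 34.1 and 27.9 CPM in polysomal and at 71.4 and 75.5 CPM in total RNA, a 2.38-fold lower level with the smallest p of the named genes (−1.25 ± 0.13, adjusted p = 0.317 in edgeR). Gas5, a growth arrest transcript, stood at 124 and 95.4 against 217 and 208 CPM (−0.96 ± 0.15, adjusted p = 0.433 in edgeR). Snhg20 stood at 9.09 and 8.23 against 17.6 and 19.6 CPM (−1.11 ± 0.14, adjusted p = 0.317 in edgeR). None of these values overlapped between fractions. In the fit to all 8 libraries Snhg6, Snhg20 and Gas5 passed an adjusted p of 0.05 as lower, beside 0.174% of all genes. The members varied, since Snhg17 at 49.5 and 49.8 against 66.1 and 69.6 CPM was only 0.46 below 0 on the log2 scale.

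Several other noncoding classes had low ratios. The median log2 ratio was −0.27 over 449 lincRNAs, −0.31 over 272 antisense RNAs and −0.26 over 252 processed transcripts, against 0.01 over 12838 protein coding genes, and polysomal values lay below both total values for 182, 115 and 107 of them and above both for 31, 10 and 13. Over 80 snoRNA genes the median was −0.60, with 44 below both total values and 2 above. The libraries were poly(A) selected, and whether these reads came from snoRNAs or from their host transcripts was not tested. Of all genes 19.9% lay below and 19% above. Other classes did not in control cells, with medians of 0.01 over 36 sense intronic RNAs (7 above, 4 below), 0.05 over 214 transcripts still to be experimentally checked (57 above, 52 below) and −0.08 over 20 miRNA genes (0 above, 5 below). In HuD cells the medians of these classes were −0.14, −0.15 and −0.03 in the same order. Of the 210 transcripts still to be checked that were tested there, 28 lay above and 71 below. Of all genes in HuD cells, 25.5% lay above and 24.4% below. Counting on the strand of the gene is not stated, so that reads of antisense RNAs and of their sense partners may not have been told apart. H19, an imprinted RNA, stood at 7.05 and 7.60 CPM in polysomal and at 16.9 and 21.2 CPM in total RNA (−1.39 ± 0.16, adjusted p = 0.317 in edgeR). Gm26917, annotated as a lincRNA, stood at 110 and 61.7 against 275 and 246 CPM (−1.60 ± 0.26), and Gm11974 at 28.8 and 20.5 against 53.8 and 53.6 CPM (−1.12 ± 0.17). The GC content of Gm26917 was 69.1%, against a median of 50.6% over all genes, and its ratio was −1.30 with GC correction. Which RNA its reads came from was not tested. RNAs known for nuclear retention were not uniformly low, with a median of −0.29 over 13 that was −0.14 without polysomal library 2. Neat1, the paraspeckle scaffold, was at 22.0 and 17.7 against 31.3 and 24.3 CPM (−0.49 ± 0.17), and Malat1 at 134 and 87.8 against 130 and 74.9 CPM (0.11 ± 0.30), where library 1 was high in both fractions and the groups overlapped.

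The mRNAs of the mitochondrial genome, which are translated by mitochondrial ribosomes, had a median log2 ratio of −0.59 over 7 members. For 6 of 7 the polysomal values lay below both total values, beside 19.9% of all genes. The median was −0.24 without polysomal library 2 and −0.88 without polysomal library 1. mt-Nd1, a subunit of complex I, stood at 2164 and 1641 CPM in polysomal and at 3276 and 3464 CPM in total RNA (−0.83 ± 0.18, adjusted p = 0.748 in edgeR). mt-Co1, a subunit of cytochrome oxidase, stood at 5848 and 2945 against 6714 and 6431 CPM (−0.59 ± 0.32), a ratio that was −0.17 without polysomal library 2 and −1.17 without polysomal library 1. mt-Nd6 was the exception and followed the library number, with 89.7 and 33.8 against 68.4 and 30.9 CPM. Mitochondrial ribosomal proteins had a median of −0.03 over 76, close to all genes. Nuclear genes of oxidative phosphorylation had one of −0.04 over 81, but 0.05 from control libraries numbered 1 and −0.11 from those numbered 2. In HuD cells their median was 0.08, and 48 of 81 lay above both total values and 11 below. Of all genes in HuD cells, 25.5% lay above and 24.4% below.

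Of 19 immediate-early and Myc genes, which encode short-lived regulators, 12 had polysomal values below both total values and 1, Klf6, above both, beside 19.9% and 19% of all genes. The median log2 ratio was −0.26, but −0.17 with GC correction, −0.10 without polysomal library 2 and −0.43 without polysomal library 1. Their median GC content was 54.4% and that of all genes 50.6%. Ier2, an early response nuclear factor, stood at 40.5 and 25.5 CPM in polysomal and at 52.1 and 48.2 CPM in total RNA (−0.60 ± 0.21, adjusted p = 0.748 in edgeR). Junb, a subunit of AP-1, stood at 84.5 and 49.1 against 95.9 and 89.6 CPM (−0.48 ± 0.24), and Myc at 212 and 215 against 230 and 239 CPM (−0.14 ± 0.10). In both Ier2 and Junb polysomal library 2 was much the lower one, and without it the ratios were −0.31 and −0.14. mRNAs of the integrated stress response, whose upstream reading frames repress the main frame in unstressed cells, had a median of −0.18 over 9, which was −0.08 without polysomal library 2 and −0.36 without polysomal library 1. Atf4, its central transcription factor, stood at 673 and 521 against 750 and 652 CPM (−0.24 ± 0.17), and Ddit3 at 134 and 93.0 against 168 and 128 CPM (−0.39 ± 0.21), both with overlap. In polyamine metabolism, with a median of −0.08 over 8, Odc1 (494 and 470 against 526 and 582 CPM, −0.21 ± 0.12) and Azin1, the inhibitor of the antizyme that degrades ornithine decarboxylase (430 and 487 against 357 and 410 CPM, 0.25 ± 0.13), had opposite signs without overlap.

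**Figure D3:**
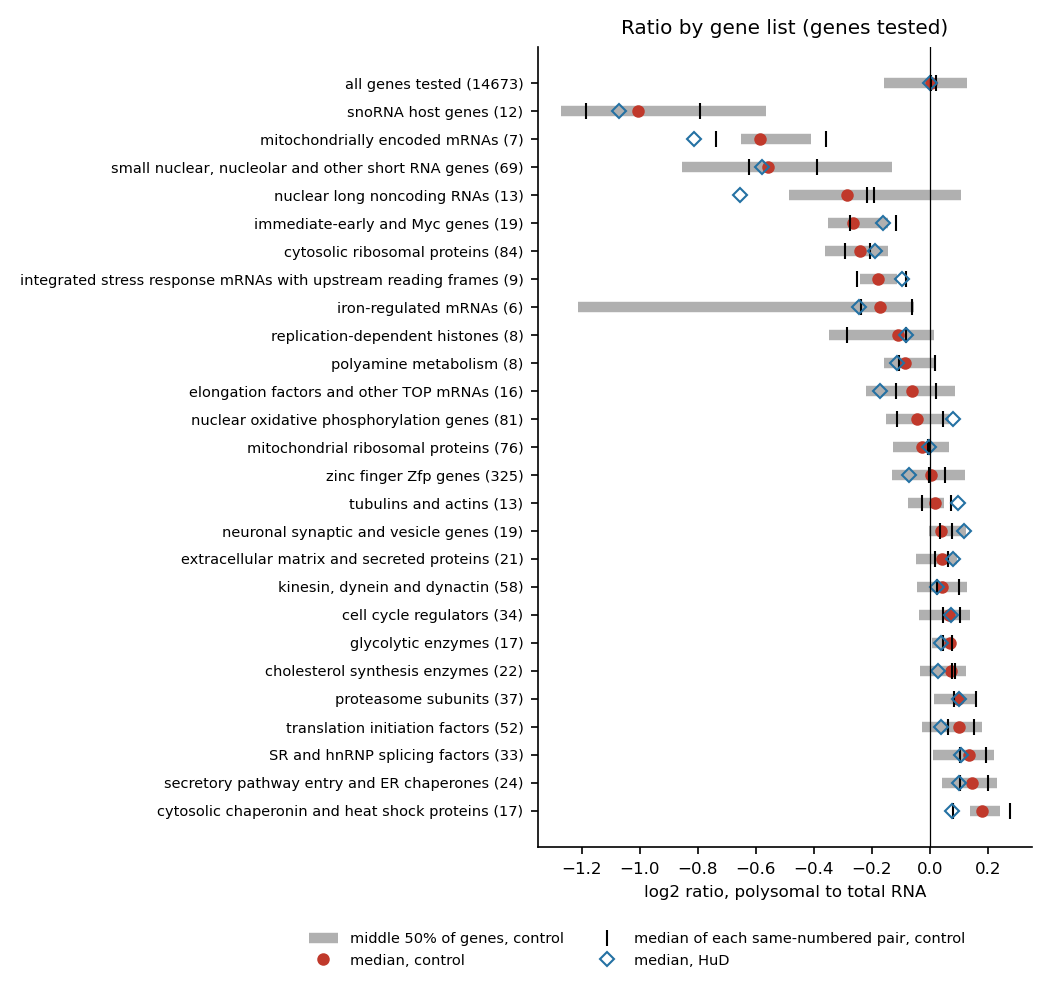
Log2 ratio of polysomal to total RNA by gene list, with the number of genes tested in brackets: median (circles) and middle 50% of genes (grey bars) in control cells, median from each same-numbered pair of control libraries (ticks) and median in HuD cells (diamonds). snoRNA host genes lie lowest at −1.01 and cytosolic ribosomal proteins at −0.24, whereas the highest median is 0.18.

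Ratios above 0 reached smaller values than those below. The 5 largest among genes at 10 CPM or more without overlap were 0.48 to 0.57 on the log2 scale. The highest, Nexn, an actin filament protein, stood at 11.03 and 17.56 CPM in polysomal and at 9.57 and 9.38 CPM in total RNA (0.57 ± 0.23, adjusted p = 0.748 in edgeR). Its value rested on polysomal library 2, without which the ratio was 0.22, and without polysomal library 1 it was 0.88. The 10 genes with the smallest p among those higher in polysomal RNA had log2 ratios of 0.35 to 0.41. Zfp292, a large zinc finger protein, stood at 78.8 and 80.7 CPM in polysomal and at 61.1 and 58.5 CPM in total RNA (0.41 ± 0.10, adjusted p = 0.748 in edgeR), a 1.33-fold difference. Ranbp2, a protein of the nuclear pore filaments, stood at 194 and 216 against 159 and 152 CPM (0.39 ± 0.11, adjusted p = 0.748 in edgeR).

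The groups of both genes did not overlap. Zdbf2, Rfx3, Zbtb20, Zfp945, Kdm7a, Rb1 and Ap1s2 were also among the 10. Ap1s2, a subunit of the AP-1 clathrin adaptor, stood at 54.6 and 52.5 CPM in polysomal and 43.9 and 39.9 CPM in total RNA (0.35 ± 0.11), and was the 1 gene of these that passed in HuD cells (0.73, adjusted p = 0.0129 in edgeR). Zbtb20 had the opposite sign in HuD cells (−0.08), and its groups and those of Zdbf2 (0.12) overlapped there. Those of Zfp292, Ranbp2, Rfx3, Zfp945, Kdm7a, Rb1 and Ap1s2 did not overlap in HuD cells, with polysomal values above total values. The GC content of the transcripts of the 10 genes lay between 35.4% and 43.0%, below the median of 50.6% over all genes.

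Medians above 0 were small and were found for several lists of unlike function. Proteasome subunits had a median log2 ratio of 0.10 over 37 members, with 14 above both total values and 1, Psmb10, below, beside 19% and 19.9% of all genes. Psma4, an α subunit of the core, stood at 293 and 374 CPM in polysomal and at 271 and 290 CPM in total RNA (0.24 ± 0.14). Genes of entry into the endoplasmic reticulum and its chaperones had a median of 0.15 over 24 (8 above, 2 below), and the cytosolic chaperonin and heat shock proteins one of 0.18 over 17, although no member of the latter separated. Hsp90b1, the Hsp90 of the endoplasmic reticulum, stood at 828 and 1271 against 767 and 854 CPM (0.36 ± 0.21), where polysomal library 2 held the high value and the groups overlapped. Several of these medians rested on that library: without it, the median was 0.0030 for the cytosolic chaperones, 0.04 for the endoplasmic reticulum list, −0.0091 for initiation factors, −0.0058 for splicing factors (0.14 with it, over 33) and 0.06 for the proteasome. Of the motor neuron markers, Nefm (94.3 and 122 against 79.8 and 90.8 CPM, 0.34 ± 0.15) and Prph, peripherin (1053 and 1031 against 1160 and 1246 CPM, −0.21 ± 0.12), had opposite signs without overlap.

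The order of genes repeated in HuD cells. Across 14581 genes tested in both, the edgeR log2 ratios in control and HuD cells had a Pearson r of 0.55 and a Spearman rho of 0.57, and r was 0.64 over the 9702 genes at a mean of at least 10 CPM. These are correlations across genes, which are not independent replicates, and they share base composition and length. In HuD cells 238 genes that were also tested in control cells passed an adjusted p of 0.05 as lower (1.62% of all tested were lower) and 114 as higher (0.771%). All 238 had a ratio below 0 in control cells, and for 228 (95.8%) the control values did not overlap, against 19.9% of all genes. Of the 114, 112 had a ratio above 0 in control cells, and for 81 (71.1%) the control values did not overlap, against 19% of all genes. The groups did not overlap in the same direction in either condition for 1757 genes lower (61.2% of the control list, 49.9% of the HuD list) and 1525 higher (54.7% and 40.8%), which is 12% and 10.5% of genes. Among genes with low ratios in control cells, none of them called there in edgeR's test, in HuD cells Ftl1 had a ratio of −1.72 (adjusted p = 8.36e-05), Rpsa −1.36 (adjusted p = 0.000154), Snhg6 −1.50 (adjusted p = 0.00361) and Pabpc1 −0.93 (adjusted p = 0.00145). Over the lists, 13 of 84 ribosomal protein genes, 10 of 12 snoRNA hosts and 5 of 7 mitochondrial mRNAs passed as lower in HuD cells. A difference of the ratio between control and HuD cells passed for 0 of 14906 genes in edgeR's interaction test, with a smallest adjusted p of 1. With 2 libraries a group, this does not show that the ratios were equal. The study reported genes with altered translation efficiency from its RNA-Seq and POL-Seq, with HuD targets enriched among the increased ones. Its methods name edgeR for that call but no threshold, so the counts cannot be set side by side.

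**Figure D4:**
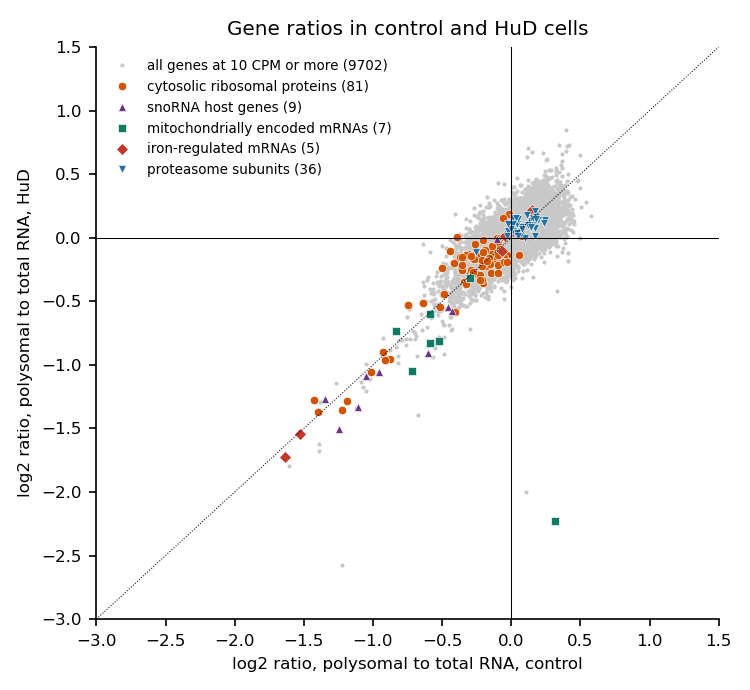
Log2 ratio of polysomal to total RNA in control (x) and HuD cells (y), edgeR estimates, for 9702 genes at a mean of at least 10 CPM (grey) with 5 gene lists coloured; the dotted line marks equal ratios and 6 genes lie outside the axes. snoRNA hosts, both ferritins and a part of the ribosomal protein genes extend along the line to low values, with r = 0.64 over all genes shown.

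Total RNA library 1 of HuD cells stood apart for some RNAs, with Malat1 at 587 CPM in library 1 and 94.4 CPM in library 2, and mt-Nd6 at 368 and 45.6 CPM. The ratios from the libraries numbered 2 of HuD cells, which leave it out, correlated with those of control libraries numbered 1 and 2 with r = 0.79 and 0.66 over the 9702 genes, and those from the libraries numbered 1 with r = 0.64 and 0.43. Between the 2 pairs of control libraries r was 0.63.

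The ratio moved with base composition and length. Over 9521 protein coding genes at 10 CPM or more, the log2 ratio in control cells had a Spearman rho of −0.64 with the GC content of the transcript (−0.45 from libraries numbered 1, −0.66 from those numbered 2, −0.38 in HuD cells). In the lowest of 5 equal bins by GC content (33.9% to 44.7%) the median ratio was 0.18 and 855 of 1905 were above both total values, and in the highest bin (56.2% to 72.9%) it was −0.12 and 700 of 1904 were below. Over all genes tested 19% were above and 19.9% below. The difference between polysomal libraries 1 and 2 also followed GC content, with a rho of 0.52 in control cells and 0.06 in HuD cells, and that between total control libraries had a rho of 0.25. The rho with the ratio was 0.30 for 3′ UTR length, 0.28 for coding length and 0.06 for 5′ UTR length. For coding length it was 0.16 from control libraries numbered 1, 0.31 from those numbered 2 and −0.04 in HuD cells. The part of base composition in preparation or sequencing of the libraries was not tested.

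**Figure D5:**
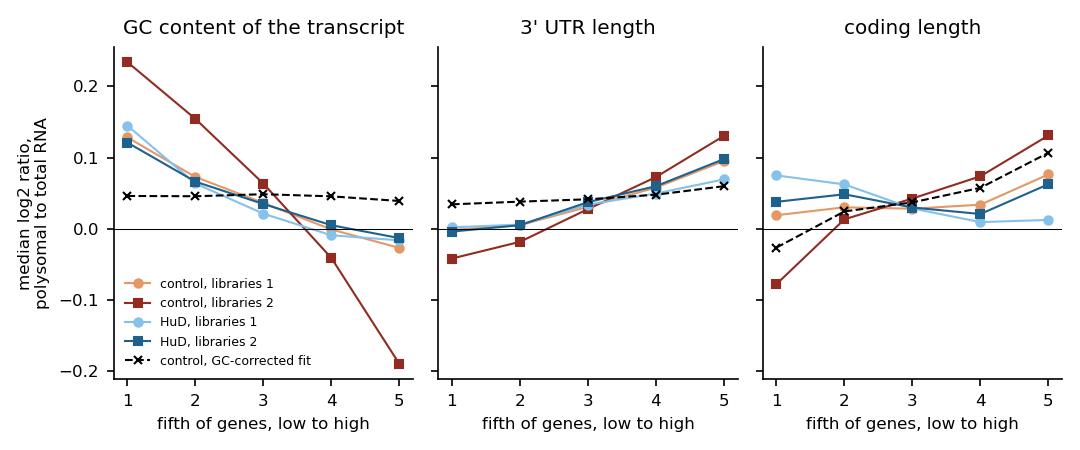
Median log2 ratio of polysomal to total RNA in 5 equal bins of protein coding genes at 10 CPM or more, by GC content, 3′ UTR length and coding length, from each same-numbered pair of control and HuD libraries and from the control fit with GC correction. With GC content the medians ran from 0.23 to −0.19 in control libraries numbered 2 and from 0.13 to −0.03 in those numbered 1, while the crosses of the corrected fit lie between 0.04 and 0.05.

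A fit with each library's trend on GC content taken out, which was added once the data had been seen, left the low gene families near their values. In it the median log2 ratio was −0.22 for ribosomal proteins, −1.08 for snoRNA hosts and −0.71 for mitochondrial mRNAs, and the ratio was −1.50 for Ftl1 and −1.47 for Fth1. The higher genes moved closer to 0: Zfp292 went from 0.41 to 0.26, Ranbp2 from 0.39 to 0.24 and Ap1s2 from 0.35 to 0.15. Medians went from 0.18 to 0.13 for cytosolic chaperones and from 0.14 to 0.07 for splicing factors, while that of the integrated stress response mRNAs went from −0.18 to −0.03. In HuD cells the corrected fit called 217 genes lower (1.47%) and 38 higher (0.258%), among the lower ones 13 of the 84 ribosomal protein genes. Under the correction rho with 3′ UTR length was 0.07 and rho with coding length 0.39.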

How the data were processed

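For POL-Seq and RNA-Seq the authors deposited 1 table of raw read counts per gene. Per the labels and methods, reads of poly(A) selected stranded libraries were aligned with STAR 2.5.3a to GRCm38.p4 with Gencode annotation and no normalization was applied. Whether counting used the strand is not given in the sources used here. The table holds 8 columns, of which the 4 of control cells gave the main comparison. The CRAC and 3′ end files were not used.

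The comparison used edgeR 4.0.16 under R 4.3.3 (TMM, filterByExpr, quasi-likelihood test, Benjamini-Hochberg adjustment at 0.05) on the 4 control libraries, after a check on simulated data. Errors of log2 ratios are standard errors of the fit, with 2 libraries per fraction, and p-values are two-sided. Labels call the libraries biological duplicates without naming cultures, so p-values cover the spread between these libraries. DESeq2 1.42.0 and voom of limma 3.58.1 were alternatives. GC content is that of the longest coding transcript in GENCODE vM21, and its correction used lowess offsets per library. Ratios of same-numbered libraries add 0.5 counts. Genes named have the smallest p (10 per direction) or the largest ratio (5 per direction) at a mean of at least 10 CPM without overlap, or are the highest or the most distant of a gene list, or were followed by the study. Rps2, Rps27, Rps29, Rplp2, Rpl7a, Rpl14, Rpl15, Rpl27a, Chat, Neat1 and Tfrc were named after their values were seen. Gene lists and comparisons were chosen with earlier results of these data known. Positions are 1-based. Figures were drawn with matplotlib 3.10.9. A gene that the naming rule selects is not reported here.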

Additional observations from a re-analysis of the deposited data

How the results depend on the processing

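Precision is limited by 2 libraries a fraction, of which the polysomal ones differed most. No gene was called in either direction by RLE, upper-quartile or total scaling, TMM on nuclear protein coding genes, no filter, a mean of at least 1 CPM, limma voom, a minimum change of 1.2-fold or GC correction. For lower genes DESeq2 called 46, the fit to all 8 libraries 26, and leaving out 1 library 19 to 802, with 802 without polysomal library 1, 38 and 29 without total libraries 2 and 1, and 19 without polysomal library 2. For higher genes leaving out 1 library gave 0 to 515, with 515 without polysomal library 1 and 7 without total library 1. The cause was not tested.

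The labels tie no cultures across same-numbered libraries. Their deviations from the group means had a correlation of 0.66 between polysomal and total control libraries and of 0.28 to 0.57 between the other 5 pairs of groups, a hint of pairing from the data and not from the design. With the replicate block 73 genes were called lower, 41 in the fit to all 8 libraries with the block, and 40 with GC correction and the block, and 0 higher in each.

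The repeat in HuD cells had rho 0.57 over all genes, r 0.64 and rho 0.63 at 1 CPM, r 0.64 and rho 0.67 at 10 CPM, r 0.68 and rho 0.65 at 100 CPM, and r 0.54 and, at 10 CPM, 0.62 with GC correction. From single pairs r was 0.63 within control, 0.70 within HuD cells, and 0.64, 0.79, 0.43 and 0.66 between them.

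Of 68 genes followed, 61 kept their sign under all 18 alternatives. The exceptions were Eif4a1 (−0.020 to 0.20 on leaving out 1 library), Eif4a3 (−0.068 to 0.076 likewise, −0.021 by upper-quartile scaling, −0.0089 by TMM on coding genes and −0.0050 with a mean of at least 1 CPM), Npm1 (−0.056 to 0.59), Malat1 (−0.25 to 0.57, and −0.010 and −0.0021 with GC correction without and with the block), mt-Nd6 (−0.56 to 1.01), Klf6 (−0.0023 with GC correction and the block) and Tfrc (−0.0065 and −0.0053 with GC correction without and with the block). GC correction was chosen after seeing the data. Of 29 lists, 15 kept the sign of their median, among them ribosomal proteins (−0.32 to −0.18) and snoRNA hosts (−1.18 to −0.78). On leaving out 1 library the median ran from −0.0091 to 0.18 for initiation factors, −0.055 to 0.014 for mitochondrial ribosomal proteins, −0.0093 to 0.13 for glycolytic enzymes, −0.038 to 0.18 for cholesterol synthesis, −0.0058 to 0.28 for splicing factors, −0.053 to 0.17 for cell cycle regulators, −0.020 to 0.060 for synaptic genes and −0.086 to 0.14 for motor neuron markers. It likewise ran from −0.10 to 0.0052 for elongation factors and other TOP mRNAs and −0.17 to 0.064 for nuclear oxidative phosphorylation. For tubulins and actins it was −0.053 to 0.091, and for replication-dependent histones −0.52 to 0.024. For Zfp genes it was −0.022 to 0.037, and for kinesin, dynein and dynactin −0.0095 to 0.13. The cause was not tested.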
